A study of Mus musculus with 12 samples.

Results

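The 42 genes described here were listed as secreted growth factors, the proteins through which transplanted or resident cells can act on their neighbours, and 1 of them, Fgf13, encodes a relative of the fibroblast growth factors that stays inside the cell. They are the vascular endothelial growth factors, angiopoietins and angiopoietin-like proteins, fibroblast, platelet-derived, epidermal and hepatocyte growth factors, stem cell factor, neurotrophins, ligands of the TAM receptors, the midkine family, vasoactive peptides, progranulin and hepatoma-derived growth factor. They were taken as a list of 42 from the 21729 genes of the count table, and all 42 were in the table. The 12 samples are single cultured cardiac progenitor cells (CPCs), 1 library each, and form 1 group. By the methods of the study, the cells came from hearts of female FVB mice aged 12 weeks with no genetic change named. They were depleted of blood lineages, sorted on magnetic beads for c-Kit and expanded over 5 passages on gelatin in medium with serum, leukemia inhibitory factor, basic fibroblast growth factor and epidermal growth factor, so that protein products of 2 of the listed genes, Fgf2 and Egf, were supplied from outside to every cell. The cells of 2 hearts were pooled per the methods of the study, and no label ties a cell to an animal or a dish. The group was therefore treated as 1 sample: the spread given is that among these 12 cells, no test was made, and nothing was compared with freshly isolated cells.

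Growth factors of this kind are made by stromal, vascular and blood cells of the heart and bind receptors, most of them receptor tyrosine kinases, on neighbouring cells or on the cell that made them. Several are held on the cell surface or in the matrix until a protease releases them, and heparan sulfate holds many of them there. Cultured cardiac progenitor cells are often discussed as a source of such factors, and messenger RNA, which was measured here, shows whether a cell could make a factor but not whether the protein was secreted.

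The libraries held 3453708 to 5690184 counts. Levels are given as CPM, counts scaled to 1000000 per cell, or as TPM, which also divides by exon length and is used wherever 1 gene is set against another. A count of 0 still allowed 3 counts, or 0.527 to 0.869 CPM depending on the cell, and limits of this kind cover counting error only. A few libraries stood apart. Kit itself, the gene the cells were sorted on, had 21 counts in cell 10 (3.94 CPM) and 0 counts in the other 11 cells. Cell 10 had 9810 CPM over 10 endothelial markers, against at most 58.5 CPM in any other cell, with Cldn5 and Vwf at 0 in every cell. Of 10 fibroblast markers, 5 were counted in it, with a sum of 3593 CPM against a median of 4821. Among these the collagen gene Col1a2 was at 0.376 CPM (median 690) and Col3a1 at 1.13 CPM (median 87.0). Pdgfra was at 175 CPM (median 73.1) and Fbln2 at 3406 CPM (median 3513). Cell 3 had 1623 CPM over 10 haematopoietic markers, of which 1463 CPM was Cd53, against at most 75.6 CPM elsewhere, with Itgam, Laptm5, Tyrobp and Fcer1g at 0 in every cell. Cell 11 had 3737 CPM over 10 mural markers, of which 3668 CPM was Acta2. Cell 12 had 16325 CPM over 10 fibroblast markers, of which 9563 CPM was Fbln2 and 3946 CPM Col1a2, against 2167 to 8104 CPM in the others. Col1a1, Tcf21 and Loxl1 were also highest there. Dcn and Pdgfra were highest in cell 3, Col3a1 and Postn in cell 7 and Lum in cell 6. Cell 12 also had the highest sum of 10 cardiomyocyte markers, 86.6 CPM, all of it Tnnt2, while 7 of those markers (Nppa, Ryr2, Myl7, Myh6, Myh7, Actc1 and Actn2) were at 0 in every cell. The Y-linked genes Ddx3y and Eif2s3y were counted in 12 of 12 cells although the labels name female mice. Ddx3y was at 3.96 to 187 CPM with a median of 62.8, and Eif2s3y at 5.80 to 124 CPM with a median of 64.5. Counts of growth factor and receptor genes that rest on all 12 cells are given with and without cells 3 and 10 where this changes them.

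Of the 42 growth factor genes, 37 had a count in at least 1 cell and 15 (35.7%) were counted in all 12 cells. These common genes were Vegfa, Vegfb, Angptl2, Fgf2, Pdgfa, Pdgfd, Hbegf, Ereg, Kitl, Bdnf, Gas6, Pros1, Adm, Grn and Hdgf. Of all 21729 genes, 35.3% were counted in all 12 cells, so with all cells included the share of the growth factors was close to that of the table as a whole. Without cell 10 the common set was 19 genes (45.2%, against 36.8% of all genes), since Vegfc, Angptl4, Fgf7 and Fgf10 were each counted in 11 cells and each had its 0 in cell 10.

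At 10 CPM or more, 11 of the 42 genes (26.2%) were common to all 12 cells, against 21.5% of all genes. They were the 15 genes above other than Angptl2, Fgf2, Pdgfd and Adm, and without cells 3 and 10 there were 13 (31.0%, against 23.5% of all genes). Another 13 genes reached 10 CPM in 2 to 11 cells, and 8 (Pgf, Angpt1, Fgf1, Fgf5, Pdgfc, Ptn, Mdk and Edn1) were counted without reaching it.

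The genes that came from single cells were few in number, though their share was above that of the table. At 10 CPM or more in 1 cell only there were 5 (11.9%), against 4.35% of all genes: Fgf13 in cell 2, Hgf in cell 7, Gdnf in cell 9, Angpt2 in cell 10 and Fgf18 in cell 11. Without cells 3 and 10 there were 4, with Angpt2 dropped, and the share of all genes was not computed for this setting. Each of the 5 was also counted at a lower level elsewhere. Fgf13 and Hgf were counted in 2 cells each, Gdnf in 7, Angpt2 in 9 and Fgf18 in 10. Gdnf, at 11.1 CPM in cell 9, was at 8.11 CPM in cell 1. Of the 42 genes, 0 had all of their counts in 1 cell. Of the 29 genes at 10 CPM or more somewhere, 3 (10.3%) had over 50% of their summed CPM in 1 cell, against 5.97% of such genes in the table. They were Fgf13, with 99.2% in cell 2, Hgf, with 70.0% in cell 7, and Apln, with 55.5% in cell 8. Without cells 3 and 10 there were 4 such genes, with Nrg1 (cell 12) added, and the share of all genes was not computed for this setting.

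The 5 genes without a count were Fgf9, Fgf21, Pdgfb, Egf and Ntf3 (11.9%, against 33.4% of all genes). For each of them a count of 0 allowed a level of up to 3 counts in each cell, as given above.

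**Figure D1:**
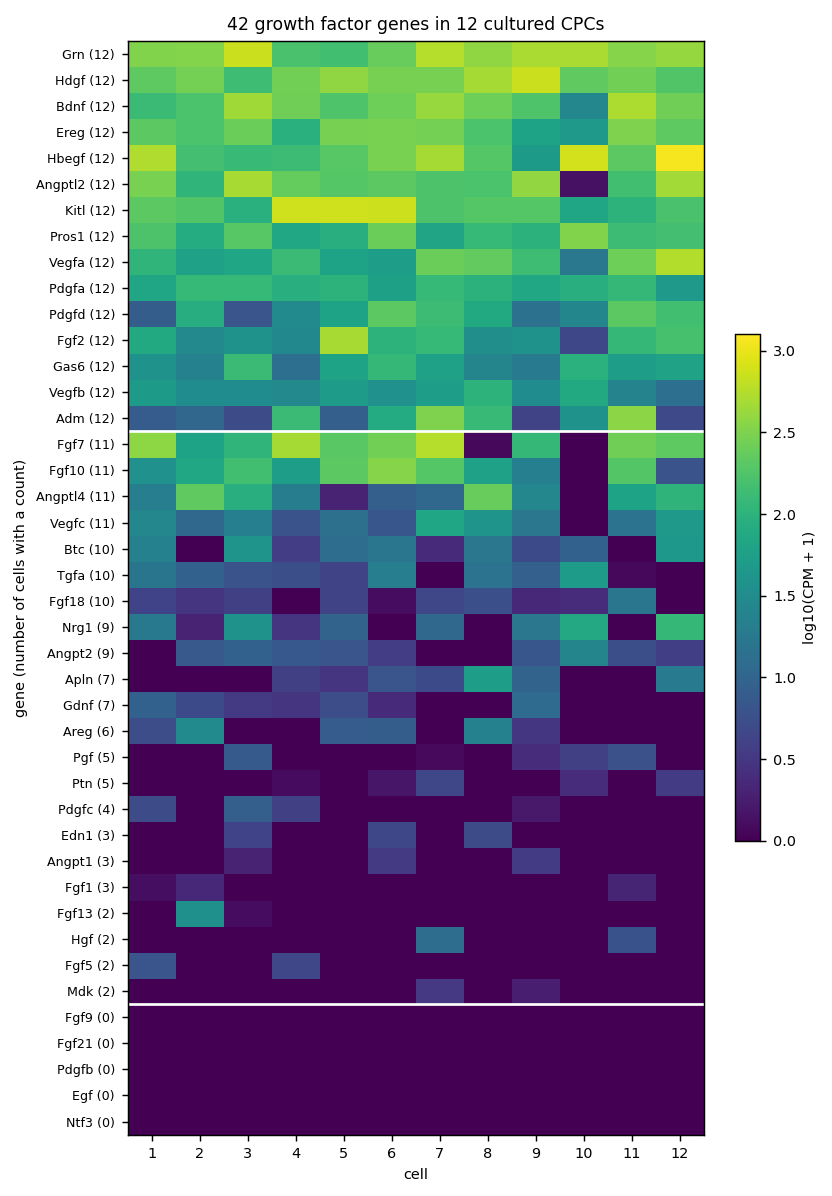
Level of the 42 growth factor genes (rows, with the number of cells that had a count) in the 12 cells (columns), as log10(CPM + 1) by colour. White lines separate the 15 genes counted in all 12 cells, the 22 counted in 2 to 11 cells and the 5 without a count, and cell 10 is dark for Angptl2, Fgf7, Fgf10, Angptl4 and Vegfc.

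Promoters are shown for 6 genes, picked to span the range of detection and of CG content: Hdgf and Vegfb, counted in 12 of 12 cells at 10 CPM or more, Fgf18, counted in 10 cells at a median of 2.44 CPM and with the most CG of the 33 listed genes that had a window, Adm, counted in 12 cells with a wide spread, Hgf, counted in 2 cells, and Egf, without a count. Many promoters of broadly transcribed genes are rich in the dinucleotide CG, and CG is in capitals here. Each sequence is the 250 bases before the RefSeq start (GRCm38.p6), read 5′ to 3′ on the strand of the gene. They lie at chr3:87906071-87906320 on the plus strand (Hdgf), chr19:6987652-6987901 on the minus strand (Vegfb), chr11:33147401-33147650 on the minus strand (Fgf18), chr7:110627407-110627656 on the plus strand (Adm), chr5:16553245-16553494 on the plus strand (Hgf) and chr3:129755323-129755572 on the minus strand (Egf). All 6 windows end upstream of the GENCODE gene they belong to. The Adm window overlaps Gm28863 and the Egf window overlaps 6330410L21Rik, both annotated on the opposite strand, and the other 4 overlap no annotated gene.
Hdgf: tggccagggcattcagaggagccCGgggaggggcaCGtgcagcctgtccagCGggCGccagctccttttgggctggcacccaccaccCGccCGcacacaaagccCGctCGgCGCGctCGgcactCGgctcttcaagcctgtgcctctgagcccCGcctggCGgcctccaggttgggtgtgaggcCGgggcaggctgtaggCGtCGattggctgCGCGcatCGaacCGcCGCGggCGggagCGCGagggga
Vegfb: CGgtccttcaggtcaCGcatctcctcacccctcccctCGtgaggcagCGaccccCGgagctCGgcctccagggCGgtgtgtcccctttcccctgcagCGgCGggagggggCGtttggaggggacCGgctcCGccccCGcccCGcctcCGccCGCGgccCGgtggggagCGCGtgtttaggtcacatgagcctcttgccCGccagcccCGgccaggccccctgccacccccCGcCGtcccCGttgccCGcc
Fgf18: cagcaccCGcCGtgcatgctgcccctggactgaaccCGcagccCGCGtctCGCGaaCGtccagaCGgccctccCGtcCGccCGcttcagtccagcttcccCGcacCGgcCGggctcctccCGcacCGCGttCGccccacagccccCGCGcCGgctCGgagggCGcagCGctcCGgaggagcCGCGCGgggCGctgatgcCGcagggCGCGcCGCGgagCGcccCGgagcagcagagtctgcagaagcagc
Adm: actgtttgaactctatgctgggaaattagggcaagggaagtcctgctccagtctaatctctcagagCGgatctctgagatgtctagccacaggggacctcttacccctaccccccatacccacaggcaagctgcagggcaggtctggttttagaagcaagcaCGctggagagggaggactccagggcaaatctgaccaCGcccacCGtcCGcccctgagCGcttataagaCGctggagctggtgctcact
Hgf: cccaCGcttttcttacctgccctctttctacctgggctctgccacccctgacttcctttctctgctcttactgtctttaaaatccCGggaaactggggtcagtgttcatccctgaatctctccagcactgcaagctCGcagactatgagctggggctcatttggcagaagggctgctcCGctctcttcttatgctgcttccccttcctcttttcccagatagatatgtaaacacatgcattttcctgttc
Egf: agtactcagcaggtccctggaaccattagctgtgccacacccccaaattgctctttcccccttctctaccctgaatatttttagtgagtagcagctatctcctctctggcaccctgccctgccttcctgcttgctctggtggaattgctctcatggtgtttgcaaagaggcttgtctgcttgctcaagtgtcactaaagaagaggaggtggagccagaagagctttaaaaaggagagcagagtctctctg
The Hdgf and Vegfb windows held 26 CG dinucleotides each, the Fgf18 window 37, the Adm window 7, the Hgf window 4 and the Egf window 0. The median over 27025 genes with a window was 6, and 17.7% of windows held 20 or more. The count for Adm, a common gene, lay near the median. A comparison over the whole list is void, since 33 of the 42 genes (78.6%) had a window.

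The order of the common genes by level was taken per length. Grn had the highest median, 295 TPM (113 to 516), followed by Hdgf with 272 TPM (117 to 721), Ereg with 142 TPM (32.1 to 223), Hbegf with 117 TPM (28.9 to 699) and Bdnf with 113 TPM (12.3 to 243). Pros1, Angptl2, Kitl and Pdgfa followed at medians of 82.5 to 87.1 TPM, then Vegfa at 71.8, Gas6 at 61.1, Pdgfd at 59.6, Vegfb at 59.2, Adm at 41.3 and Fgf2 at 22.8 TPM. Each gene overlapped its neighbours in this order over the 12 cells. Fgf7 had a median of 183 TPM, between those of Hdgf and Ereg, but was missing from cell 10.

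**Figure D2:**
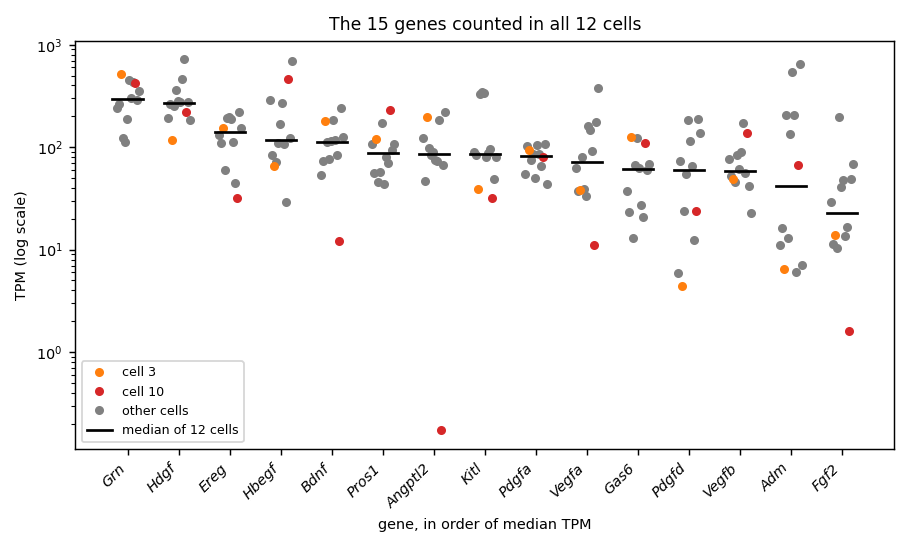
TPM (log axis) of the 15 growth factor genes counted in all 12 cells, 1 point per cell, with a bar at the median and cells 3 and 10 in colour. Cell 10 lies lowest for Angptl2, Fgf2, Bdnf, Ereg, Kitl and Vegfa, while Pdgfa spans only 44.2 to 107 TPM.

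Grn encodes progranulin, a secreted glycoprotein that is also delivered to lysosomes, and Hdgf encodes a heparin-binding growth factor that is found in the nucleus as well. Grn (chr11:102430315-102437048, mm10) ran from 144 CPM in cell 5 through a median of 363 to 714 CPM in cell 3. Hdgf (chr3:87906321-87916132) ran from 134 CPM in cell 3 through a median of 277 to 704 CPM in cell 9. Cell 3 was thus highest for one and lowest for the other. Together the 2 genes made up a median of 22.0% of the summed growth factor TPM of a cell, from 17.4% to 54.0% in cell 9.

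Vegfa, the chief signal for blood vessel growth (chr17:46016993-46032369), was counted at 16.3 CPM in cell 10, a median of 118 and 552 CPM in cell 12. Cells 7, 8 and 11 followed cell 12 at 253, 227 and 259 CPM, and the other cells other than cell 10 lay at 51.8 to 135 CPM. Vegfb (chr19:6982473-6987651), which binds Flt1 but not Kdr, was lowest in cell 12, at 12.5 CPM, and highest in cells 8 and 10, at 101 and 76.2 CPM, with a median of 33.8. Vegfc, a factor for lymphatic vessels (chr8:54077606-54187096), was at 0 in cell 10, at 14.9 CPM in the median and at 68.3 CPM in cell 7. It reached 10 CPM in 9 cells. Pgf, the placental member of the family, was counted in 5 cells at 6.59 CPM or less.

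The angiopoietins act on the receptor Tek of endothelial cells. Angpt2 (chr8:18690263-18741562), which opposes Angpt1 at that receptor in many settings, was at 24.8 CPM in cell 10 and at 0 to 8.17 CPM in the others. Cell 10 was also the only cell with a count of Tek, at 47.7 CPM. Angpt1 was counted in 3 cells at 2.52 CPM or less.

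Of the angiopoietin-like genes, which encode secreted proteins that do not bind Tek, Angptl2 (chr2:33216069-33247717) was at 106 to 499 CPM in 11 cells and had 2 counts in cell 10 (0.376 CPM, exact Poisson interval 0.242 to 7.22 counts at a level of 0.95). Its median was 199 CPM. Angptl4, an inhibitor of lipoprotein lipase (chr17:33773750-33781830), ran from 0 in cell 10 and 0.995 CPM in cell 5 through a median of 23.2 to 219.5 CPM in cell 2 and 240.3 CPM in cell 8. It differed among the cells more than most genes of its level, as described below.

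In the fibroblast growth factor family, Fgf2, Fgf7 and Fgf10 carried nearly all of the counts. Fgf2, basic fibroblast growth factor (chr3:37348346-37410108), was at 3.76 CPM in cell 10 and at 26.8 to 158 CPM in 10 cells, with a median of 57.2. Cell 5 stood far above them at 490 CPM, which was 40.0% of its CPM summed over the cells. Exons of Fgf2 overlap those of Nudt6 on the opposite strand over 9.44% of their length, and Nudt6 had no count in cell 5 and at most 3.76 CPM in any cell.

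Fgf7, keratinocyte growth factor (chr2:126034658-126091185), was either abundant or nearly missing. It lay at 61.5 to 573 CPM in 10 cells, highest in cells 7 and 4 at 573 and 475 CPM. Cell 8 had 1 count (0.182 CPM, exact Poisson interval 0.0253 to 5.57 counts) and cell 10 none, while the median of the 12 cells was 209 CPM. Fgf10 (chr13:118669791-118792115), which like Fgf7 signals from mesenchyme to epithelium through Fgfr2, did not share this pattern in cell 8, where it was at 57.6 CPM. It ran from 0 in cell 10 and 5.27 CPM in cell 12 through a median of 64.1 to 345 CPM in cell 6.

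The other genes of this family were low. Fgf18 had a median of 2.44 CPM and 15.5 CPM in cell 11. Fgf13, the intracellular relative, was at 34.6 CPM in cell 2, had 1 count in cell 3 and none in 10 cells. Fgf1 and Fgf5 were counted in 3 and 2 cells at 5.50 CPM or less. The whole family made up from 0.276% of the growth factor TPM of a cell (cell 10) to 22.4% (cell 5).

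The PDGF genes encode growth factors for stromal and smooth muscle cells. Pdgfa (chr5:138976014-138997370) was the most even gene of the list: it ran from 46.6 CPM in cell 12 through a median of 92.1 to 119 CPM in cell 7, a range of 2.55-fold, with a mean of 89.7 ± 25.4 CPM (SD, 12 cells). Pdgfd (chr9:6168584-6378850), which signals through Pdgfrb, ran from 5.54 CPM in cell 3 and 7.24 CPM in cell 1 through a median of 68.5 to 210 CPM in cell 6 and 208 CPM in cell 11. Antisense transcripts are annotated over 26.1% of the exon length of Pdgfa and 14.4% of that of Bdnf, and the strand rule of the counting is not given in the sources used here. Pdgfc was counted in 4 cells at 7.65 CPM or less and Pdgfb in none.

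The EGF family was carried by Hbegf and Ereg, whose products are made as membrane proteins and shed. Hbegf (chr18:36504927-36515805) was at 47.4 CPM in cell 9, a median of 200.8 and 1143 CPM in cell 12, where it was the most abundant growth factor by TPM. Cell 10 was the next highest, at 778 CPM, and cells 1 and 7 followed at 540 and 477 CPM. Cell 12, which had the highest fibroblast marker sum, was highest for Hbegf, Vegfa, Btc and Nrg1, and the part of that marker sum in these values was not tested. Ereg, epiregulin (chr5:91074622-91093646), was more even, from 45.6 CPM in cell 10 through a median of 211 to 319 CPM in cell 11.

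Other genes of the family came and went between cells. Nrg1, a ligand of the ErbB3 and ErbB4 receptors (chr8:31814551-32884029), was at 117 CPM in cell 12, 73.6 CPM in cell 10 and 37.4 CPM in cell 3, with a median of 9.51 and 0 in cells 6, 8 and 11. Tgfa (chr6:86195223-86275719) was highest in cell 10, at 49.9 CPM, next in cell 6, at 19.9 CPM, with a median of 6.62. Btc, betacellulin, was highest in cell 12, at 44.5 CPM, and in cell 3, at 39.0 CPM, with a median of 10.0 CPM. Areg, amphiregulin, reached 10 CPM in cells 2 and 8 only, at 28.4 and 22.0 CPM, and was at 0 in 6 cells. Egf had no count, and the cells were given its protein.

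Kitl encodes stem cell factor, the ligand of c-Kit (chr10:100015630-100100416). It fell into 2 levels with no cell between them: 742, 751 and 727 CPM in cells 4, 5 and 6, and 64.6 to 206 CPM in the other 9 cells, with a median of 185 over the 12. In cell 4 it made up 16.5% of the growth factor TPM. Cell 10, the cell with counts of Kit, was the lowest for its ligand. Hgf, the ligand of Met (chr5:16553495-16620152), had 11.8 CPM in cell 7, 5.05 CPM in cell 11 and no count in 10 cells.

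Bdnf, brain-derived neurotrophic factor (chr2:109674700-109727007), was at 26.3 CPM in cell 10, a median of 260.4 and 524 CPM in cell 11, and the next lowest cell lay at 128 CPM. Gdnf had counts in 7 cells, with its peak of 11.1 CPM in cell 9. Gas6 and Pros1 encode the vitamin K dependent ligands of the TAM receptors Tyro3, Axl and Mertk. Gas6 (chr8:13465374-13494490) ran from 12.5 CPM in cell 4 through a median of 55.4 to 129 CPM in cell 3. Pros1 (chr16:62854307-62929346) ran from 64.5 CPM in cell 7 through a median of 126 to 323 CPM in cell 10. Both had their 3 highest cells in cells 3, 6 and 10, and together they made up 17.6% of the growth factor TPM of cell 10 against a median of 5.23%.

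Adm, adrenomedullin, a peptide that widens vessels (chr7:110627661-110629820), had the widest spread for its level among the 25 genes compared in that respect. It was at 361 and 316 CPM in cells 11 and 7, at 127, 122 and 78.9 CPM in cells 4, 8 and 6, at 37.0 CPM in cell 10 and at 3.35 to 9.63 CPM in the remaining 6 cells, with a median of 23.3. It was the most abundant growth factor by TPM in cells 7 and 11, at 537 and 644 TPM. Apln, apelin, lay at 52.0 CPM in cell 8, 18.5 CPM in cell 12 and no higher than 8.80 CPM in the rest. Edn1, endothelin 1, was counted in 3 cells at 4.18 CPM or less and was at 0 in cell 10. Ptn and Mdk, the heparin-binding midkine family, were counted in 5 and 2 cells at 3.61 CPM or less.

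**Figure D3:**
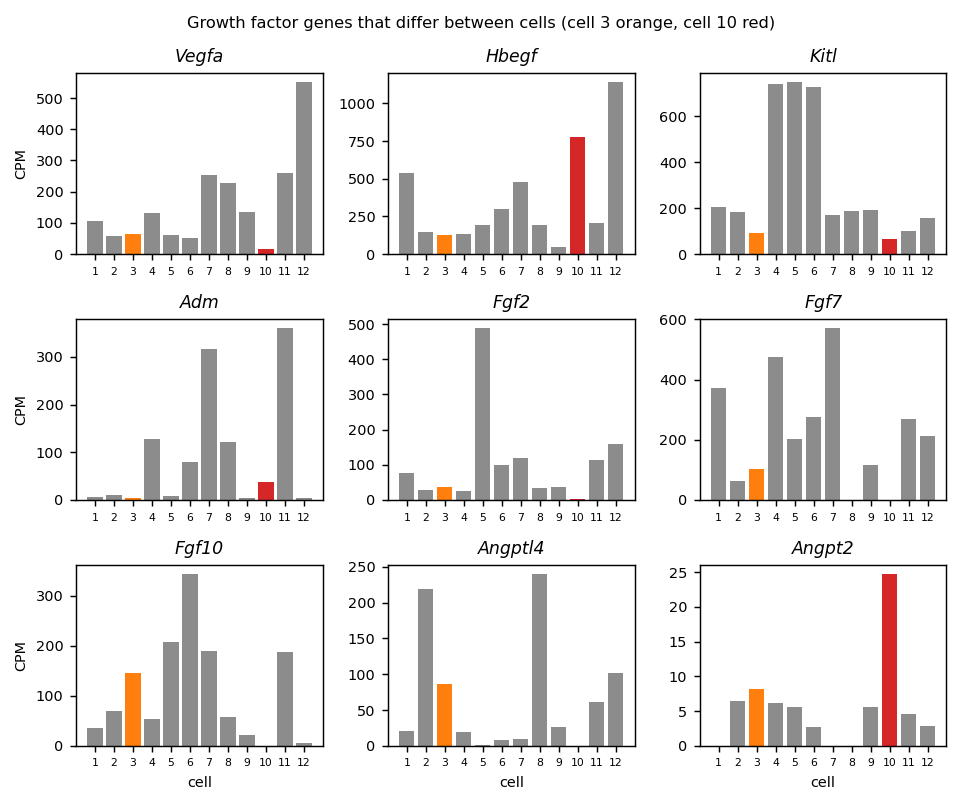
CPM in each of the 12 cells for 9 growth factor genes that differed between cells, with linear axes from 0, cell 3 in orange and cell 10 in red. Kitl is high in cells 4, 5 and 6, Fgf2 in cell 5, Hbegf and Vegfa in cell 12, and Fgf7 is nearly missing from cells 8 and 10.

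How much each gene varied was set against genes of the same level, as the logarithm to base 10 of the squared ratio of SD to mean CPM, less the running median of that measure over 9701 genes. The 25 growth factor genes with a mean of 5 CPM or more in enough cells had a median residual of 0.43 against 0 for all genes, and 24 of the 25 lay above the median of genes. Of these, 11 lay above percentile 90: Pdgfd, Apln, Fgf7, Fgf10, Vegfa, Kitl, Hbegf, Nrg1, Angptl4, Fgf2 and Adm. The exception below the median was Pdgfa, at percentile 11.2. Genes under 5 CPM had no residual, and the 25 are not the whole list. Adm lay at percentile 97.9, and at 98.8 without cells 3 and 10, while Pdgfa moved to percentile 20.0 without those cells.

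Cell 10 differed from the rest in what it lacked. It was the lowest cell for 6 of the 15 common genes (Vegfa, Angptl2, Fgf2, Ereg, Kitl and Bdnf), while 16.7% of all genes counted in 12 cells were lowest there. The 4 growth factor genes counted in 11 cells all had their 0 in cell 10, against 27.5% of the 1165 genes of the table counted in 11 cells. It was the highest cell for 3 of the 29 genes that reached 10 CPM (Angpt2, Tgfa and Pros1), against 13.1% of all such genes. The endothelial markers given above moved with these values, and their part in them was not tested.

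The number of growth factor genes counted per cell ran from 22 in cell 10 through a median of 27 to 31 in cell 9, and at 10 CPM or more from 16 in cell 10 through 20 to 22 in cell 8. The cells fell into 2 sets by the number of genes counted overall. The 7 cells with 11216 to 11950 genes counted 27 to 31 growth factors, with a median of 28. The 5 cells with 10022 to 10181 genes (7, 8, 10, 11 and 12) counted 22 to 27, with a median of 25. These 5 cells had the 5 largest totals of reads. The summed level differed within this set: cells 7, 11 and 12 had the highest sums of all 12 cells, at 3398, 3103 and 3070 TPM, cell 8 had 2448 TPM and cell 10 had 1917 TPM, the lowest but for cell 2 at 1682 TPM. Over all cells the mean was 2384 ± 555 TPM (SD, 12 cells).

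**Figure D4:**
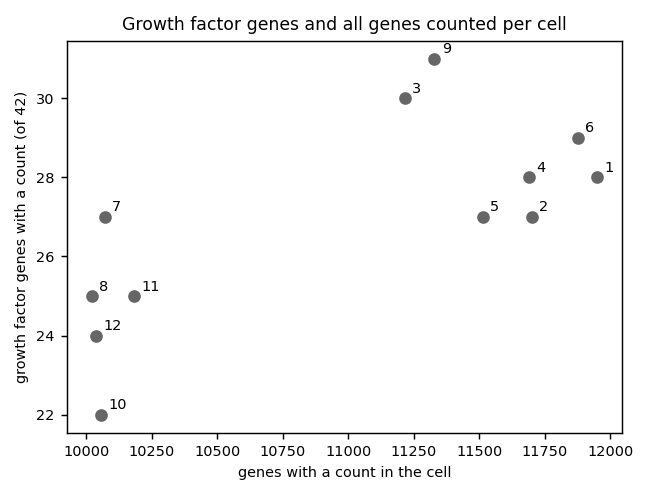
Number of growth factor genes with a count (of 42) against the number of all genes with a count, 1 numbered point per cell. Cells 7, 8, 10, 11 and 12 form a set with fewer genes and 22 to 27 growth factors, and cell 9 has the most, 31.

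Levels of pairs of genes were then set side by side over the cells. Among the 22 growth factor genes counted in at least 10 cells, the median Spearman rho of CPM over 231 pairs was 0.08. The 5 highest pairs were Fgf10 with Ereg at 0.80, Fgf2 with Ereg at 0.76, Vegfa with Vegfc at 0.73, Vegfa with Bdnf at 0.68 and Gas6 with Pros1 at 0.65. Without cells 3 and 10 they stood at 0.66, 0.73, 0.70, 0.76 and 0.44. The lowest pair was Kitl with Grn, at -0.77. Each rho rests on 12 cells that share the scaling to the library total, and these are the extremes of many pairs, so they are given as descriptions.

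Receptors decide which of these ligands the same cells could sense. Of 42 receptor genes, 11 (26.2%) were counted in all 12 cells and 2 (4.76%) were at 10 CPM or more in every cell, against 35.3% and 21.5% of all genes. Without cell 10 the second count was 4, and without cells 3 and 10 it was 5 (11.9%, against 23.5% of all genes), with Fgfrl1, Lrp1 and Met added. The 2 in all 12 cells were Axl, the receptor of Gas6, at 289 to 1253 CPM with a median of 479, and Fgfr1, the main receptor of Fgf2, at 58.6 to 259 CPM with a median of 168. The other 9 were Flt1, Nrp1, Nrp2, Fgfrl1, Pdgfra, Pdgfrb, Erbb2, Met and Lrp1. No count was found for 10 receptors (23.8%, against 33.4% of all genes), among them Erbb3 and Erbb4 for Nrg1, Ntrk2 and Ngfr for Bdnf, and Ednra for Edn1. In 10 of the 25 receptors at 10 CPM or more in a cell, over 50% of the summed CPM lay in 1 cell, against 5.97% of such genes in the table, and in 9 of these it was cell 10. Of the 9, Kdr, Tek and Tie1 are also among the endothelial markers that set this cell apart. The 9 have no share of all genes beside them. The largest of the 9 were Ramp2, a partner of the adrenomedullin receptor, at 873 CPM against at most 11.6 elsewhere, Flt1 at 599 CPM against at most 78.8, and Tie1 at 353 CPM against at most 6.66.

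Set beside the receptors paired with them here, the ligands fell into those with such a receptor in the same cell and those without. Gas6 and Axl were both at 10 CPM or more in 12 of 12 cells, Fgf2 and Fgfr1 in 11, Pdgfa and Pdgfra in 9, and Pdgfd with Pdgfrb, Vegfa with Nrp1 and Vegfc with Nrp2 in 8 each. Hbegf and Ereg were counted with Egfr in 8 cells, and at 10 CPM or more in 3. Fgf7 and Fgf10 were counted with Fgfr2 in 7 cells but never both at 10 CPM. Vegfa was counted with Kdr, and Angpt2 with Tek, in cell 10 alone. Kitl was counted with Kit in cell 10 alone, at 64.6 and 3.94 CPM. Bdnf with Ntrk2 or Ngfr, and Nrg1 with Erbb3, were counted together in 0 of 12 cells.

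**Figure D5:**
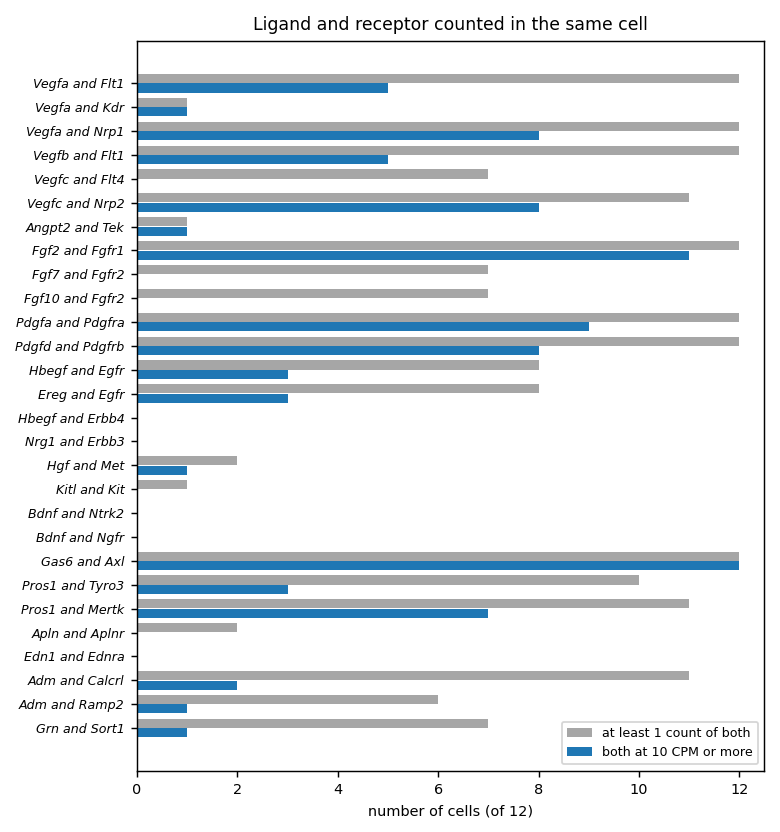
Number of the 12 cells in which a growth factor gene and a receptor gene were both counted (grey) or both at 10 CPM or more (blue), for 28 ligand and receptor pairs. Gas6 and Axl reach 12 cells at both lines, while Ntrk2 and Ngfr, the receptors paired with Bdnf here, have no count and Kitl meets Kit in 1 cell.

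Relatives of the listed ligands were examined as well. Of 37 further ligands of the same families, 35 had a row under their symbol and 16 of these (45.7%, against 33.4% of all genes) had no count. Psip1, a nuclear relative of Hdgf, was counted in all 12 cells, at 25.0 to 161 CPM with a median of 89.3. Angpt4 reached 14.2 CPM in cell 3, and no other cell passed 3.12 CPM.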

How the data were processed

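Messenger RNA of 12 single cultured CPCs was copied with the Smart-Seq v4 kit, which covers whole transcripts, and sequenced from Nextera XT libraries. The authors mapped the reads to mm10 with STAR 2.5.2b, kept uniquely mapped reads and deposited raw counts per gene and cell. The counting program, annotation and strand rule are not given in the sources used here.

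CPM values were computed from the deposited counts. TPM used the union of exons in GENCODE vM21, whose genome build is the same as mm10. A gene was called counted at 1 count or more. Totals of 3453708 to 5690184 counts set the level that a count of 0 allows. No 2 libraries were duplicates over 66 pairs, columns of unknown origin numbered 0, and doublets were not called. Dispersion was computed for genes at a mean of 5 CPM or more counted in at least 3 cells, with a running median over 201 genes, after a test on simulated data. Alternatives used edgeR 4.0.16 scaling factors (TMM), DESeq2 1.42.0 size factors, other detection lines, equal depth and each cell left out. No count model was fitted. Promoters were RefSeq windows. Python 3.11.15, pandas 2.3.3 and scipy 1.17.1 were used.

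The members, the lists of receptors, relatives and markers, and the rule for named genes (members by family, other lists at 10 CPM in all cells or with over 50% of their CPM in 1 cell, the 5 highest pairs) were chosen with earlier results of these data known. The lowest pair, and receptors named beside their ligand, were chosen outside that rule. A result on the list of relatives is not reported here.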

Additional observations from a re-analysis of the deposited data

How the results depend on the processing

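Of 38 values recomputed under other planned settings, 36 stayed within the spread of the cells or within 1.5 times the count, and 2 did not. With no lower limit on the level, 6 growth factor genes in place of 3 had over 50% of their CPM in 1 cell, by construction, since genes of a few counts entered. The median sum of the list was 3202 CPM when exon length was not used, in place of 2185 TPM, a change of unit. A detection line of 10 counts left 14 common genes, and thinning to equal depth left 15. When each cell was left out in turn, the common genes numbered 15 to 19 (19 without cell 10), those at 10 CPM in every cell 11 to 13, and those at 10 CPM in 1 cell only 4 to 7. Leaving out cells 3 and 10 for the lists of receptors and of processing genes was chosen after seeing the data: receptors at 10 CPM in every cell went from 2 to 5, and to 4 without cell 10, and processing genes from 8 to 10. No paired analysis was possible because the 12 cells form 1 group. With 1 group and no molecular identifiers, depth limits what is said of genes under about 1 CPM.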

Other observations

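Many of the listed ligands act only after a protease, a proteoglycan or a carrier has released or presented them. Of 24 such genes, 14 (58.3%) were counted in all 12 cells and 8 (33.3%) were at 10 CPM or more in every cell, against 35.3% and 21.5% of all genes. Without cell 3 the second number was 10 (41.7%, against 22.1% of all genes), with Furin and Gpc4 added. Hgfac, Spint1 and Gpc3 had no count (12.5%, against 33.4% of all genes). Among the genes listed for shedding, Adam9 was at 347 to 1487 CPM with a median of 586, Adam10 at 55.8 to 273 CPM with a median of 128, and Adam17 at 22.7 to 116 CPM with a median of 28.8. Rhbdf1, which helps Adam17 to mature, was at 24.1 to 192 CPM.

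The syndecans Sdc2, Sdc3 and Sdc4, whose heparan sulfate binds fibroblast growth factors, had medians of 156, 37.4 and 97.8 CPM and were at 10 CPM or more in every cell. Plat, a protease that activates plasminogen, was at 21.5 CPM or more in every cell and highest in cell 10, at 321 CPM. Spint2, an inhibitor of the proteases that activate Hgf, had 103 CPM in cell 10 and no more than 7.16 CPM in any other cell.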
